A study of Homo sapiens with 12 samples.

Results

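The G2 and mitosis genes described here are 54 genes for cyclin-dependent kinase control, spindle assembly, chromosome segregation and cytokinesis, out of 19775 genes with a symbol of their own on the array. Each was represented by the probe set annotated with its symbol. For a symbol carried by several probe sets, the one of highest mean level across the 12 arrays was taken. All 54 members were on the array, 29 of them with more than 1 probe set, and all 54 passed the filter on low values that left 10665 genes tested.

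HK-2 cells, an immortalized line derived from human renal proximal tubular epithelium, received Kbr at a low dose, or vehicle alone. The series asks for expression signatures of kidney toxicity. The 4 groups were Kbr at 48 h, vehicle control at 48 h, Kbr at 24 h and vehicle control at 24 h, each with 3 biological replicates on an Affymetrix expression array of its own. All groups were of this 1 line and received the same medium with epidermal growth factor (EGF), hydrocortisone, insulin, transferrin and selenite, and treatment began when the plates were close to confluent. The sources used here give neither the full name nor the concentration of Kbr.

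Entry into mitosis is driven by cyclin B bound to CDK1, which phosphatases of the CDC25 family activate and the kinase WEE1 restrains. Polo-like and Aurora kinases then build the spindle, the checkpoint proteins hold back the anaphase promoting complex until the kinetochores are attached, and kinesins, anillin and their partners divide the cell. These genes are controlled together at the cell cycle genes homology region (CHR), often near CCAAT boxes that bind NF-Y. The DREAM complex represses them there, and the MuvB complex with MYBL2 and FOXM1 has them transcribed late in the cell cycle. Their messages are low in cells that have left the cycle.

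Promoter sequences were at hand for 45 of the 54 members (RefSeq, GRCh38.p14, 250 bases before to 50 bases after the gene start). Windows for AURKA, BIRC5, BUB3, CDCA2, FOXM1, TPX2, TTK, UBE2C and WEE1 were not used here. The letters TTTGAA or TTCGAA, the core of the CHR, were found on either strand in 33 of the 45 windows (73.3%), against 11.1% of the windows of the 8852 tested genes, which include the members, and 16.6% of all 27305 windows. CCAAT on either strand was in 35 of the 45 (77.8%), against 37.3% of the tested genes' windows and 35.7% of all windows. Windows with at least 2 CCAAT matches made up 46.7% of the members' windows, 14.2% of the tested genes' and 11.3% of all. Both motifs were in 28 of the 45 (62.2%), against 4.84% and 6.58%. The 45 matches of the CHR core had a median position of -23 from the gene start (quartiles -55 and 2), and the 73 CCAAT matches lay farther upstream at a median of -75 (quartiles -115 and -54). A match is a run of letters and was not tested as a binding site.

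**Figure D1:**
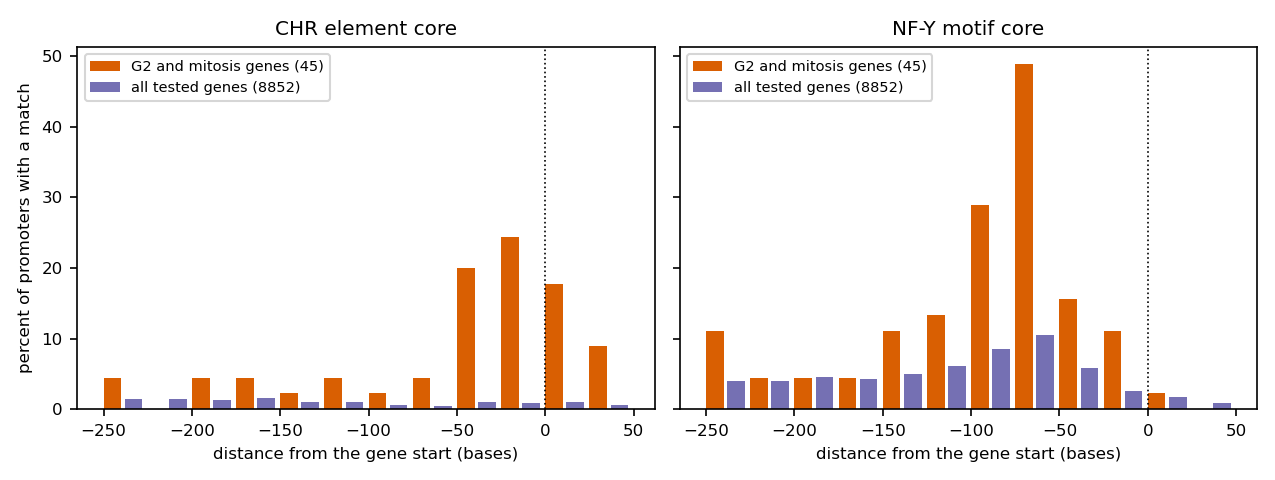
Share of promoter windows with a motif match (percent, vertical axis) in 25-base bins of distance from the gene start (bases, horizontal axis), for the CHR core on the left and CCAAT on the right, in the 45 members' windows (orange) and those of all 8852 tested genes (purple). The members' CHR matches gather around the start, with 24.4% of windows in the bin just before it, and 48.9% of their windows hold CCAAT in the bin that ends at position -50.

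The 5 windows below are shown because they held the most matches among the members given below with the value of every array. CDCA8 had as many as CDC20 and MKI67, 4 each, and the tie went to the smaller p for the control time course. The windows are those of HMMR at chr5:163460382-163460681 on the plus strand, CCNF at chr16:2429197-2429496 on the plus strand, TOP2A at chr17:40417847-40418146 on the minus strand, CDC20 at chr1:43358731-43359030 on the plus strand and MKI67 at chr10:128126374-128126673 on the minus strand. Each is written 5′ to 3′ on the strand of its gene and runs over the gene start into the first transcribed bases. Capitals mark the CHR core (TTTGAA or TTCGAA, or TTCAAA where it lies on the other strand) and CCAAT (or ATTGG where it lies on the other strand). In HMMR 1 CCAAT and 1 ATTGG share letters and count as a match each, and in MKI67 a TTTGAA shares a letter with an ATTGG.
HMMR: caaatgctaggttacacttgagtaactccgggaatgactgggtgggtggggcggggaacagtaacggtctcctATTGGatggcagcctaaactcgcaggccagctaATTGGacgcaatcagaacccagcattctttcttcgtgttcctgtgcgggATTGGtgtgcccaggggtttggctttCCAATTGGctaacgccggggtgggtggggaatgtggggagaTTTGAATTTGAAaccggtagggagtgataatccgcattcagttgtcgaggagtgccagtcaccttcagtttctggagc
CCNF: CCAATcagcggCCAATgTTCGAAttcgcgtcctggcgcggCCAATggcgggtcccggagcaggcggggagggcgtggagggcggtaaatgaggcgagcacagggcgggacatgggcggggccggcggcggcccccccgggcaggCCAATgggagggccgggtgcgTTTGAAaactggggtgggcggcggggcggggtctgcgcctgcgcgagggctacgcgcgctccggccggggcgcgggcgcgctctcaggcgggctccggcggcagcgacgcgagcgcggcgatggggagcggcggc
TOP2A: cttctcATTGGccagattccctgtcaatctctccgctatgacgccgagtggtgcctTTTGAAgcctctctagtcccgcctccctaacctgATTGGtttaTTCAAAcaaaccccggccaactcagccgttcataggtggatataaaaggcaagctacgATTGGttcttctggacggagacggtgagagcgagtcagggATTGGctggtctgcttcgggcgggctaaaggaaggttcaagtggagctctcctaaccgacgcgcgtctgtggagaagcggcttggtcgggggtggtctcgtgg
CDC20: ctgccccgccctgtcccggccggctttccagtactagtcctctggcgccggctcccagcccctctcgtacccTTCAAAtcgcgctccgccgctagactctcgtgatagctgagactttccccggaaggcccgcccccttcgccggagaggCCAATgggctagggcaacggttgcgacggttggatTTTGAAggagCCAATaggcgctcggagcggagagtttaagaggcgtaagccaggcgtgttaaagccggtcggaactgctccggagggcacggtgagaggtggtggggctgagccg
MKI67: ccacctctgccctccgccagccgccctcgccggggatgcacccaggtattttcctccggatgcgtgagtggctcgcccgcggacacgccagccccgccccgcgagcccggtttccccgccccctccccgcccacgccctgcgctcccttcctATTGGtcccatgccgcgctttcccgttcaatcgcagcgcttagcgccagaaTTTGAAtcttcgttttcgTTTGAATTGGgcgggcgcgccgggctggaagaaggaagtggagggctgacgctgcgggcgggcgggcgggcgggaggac

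In HMMR the CHR cores began 28 and 22 bases before the start, with 5 CCAAT matches upstream of them. CCNF had 4 CCAAT matches in the forward direction, TOP2A had 4 in the reverse direction, and CDC20 and MKI67 had 2 each.

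The median deposited log2 value of an array was 2.91 to 2.99. The deposited values were normalized by quantiles, so this likeness says nothing about the quality of the arrays. Precision is limited by the number of arrays. Messages that define the proximal tubule were mostly low: 9 of the 11 on the array stayed below the filter, with a highest mean of 3.70, and SLC3A1 and PAX8 passed it. SLC3A1 was lower with Kbr at both times, by log2 changes of -1.91 at 48 h and -1.34 at 24 h (adjusted p = 0.000395 and 0.021). PAX8 went the other way, with 0.40 at 48 h and 0.53 at 24 h. Its changes passed only with the replicate number as a block (adjusted p = 0.128 and 0.137, and 0.0163 and 0.0133 with the block). All 5 epithelial markers (KRT8, KRT18, KRT19, EPCAM, CDH1) were tested, and KRT19, EPCAM and CDH1 were lower with Kbr at 48 h. KRT18 was above the controls at 48 h (0.36) and KRT8 below them (-0.66). Both passed only with the block (adjusted p = 0.087 and 0.0843, and 0.0179 and 0.00043 with the block). Of the 7 fibroblast-type genes on the array, 4 (COL1A2, COL3A1, PDGFRA, PDGFRB) stayed below the filter, with a highest mean of 2.97. COL1A1, DCN and LUM passed the filter, and all 3 were lower with Kbr at 48 h, by log2 changes of -2.06, -1.69 and -1.62. KRT19 (-0.85), CDH1 (-1.75), COL1A1 (-1.30) and DCN (-0.73) were lower with Kbr at 24 h as well. None of the endothelial, leukocyte or distal tubule markers on the array (4 genes each) passed it. The part of these shifts in the results below was not tested. In bulk RNA, fewer cycling cells and less message per cell cannot be told apart.

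The members' levels were ordered in the same way at both times. The median log2 level over the 54 members was 10.62, 10.78 and 10.87 on the Kbr arrays at 48 h, against 10.03, 10.15 and 10.41 on the control arrays at 48 h. It was 11.18, 11.25 and 11.19 on the Kbr arrays at 24 h, against 10.80, 10.74 and 11.14 on the control arrays at 24 h. Kbr arrays lay above the control arrays of their own time without overlap, and the 48 h arrays lay below the 24 h arrays within each treatment. Control replicate 3 at 24 h stood closest to the Kbr arrays of that time. INCENP had a mean of 4.04 ± 0.27 in Kbr cells at 48 h and 3.52 ± 0.56 in control cells at 48 h (SD, n = 3 each), near the filter, where its values depend on the background correction.

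**Figure D2:**
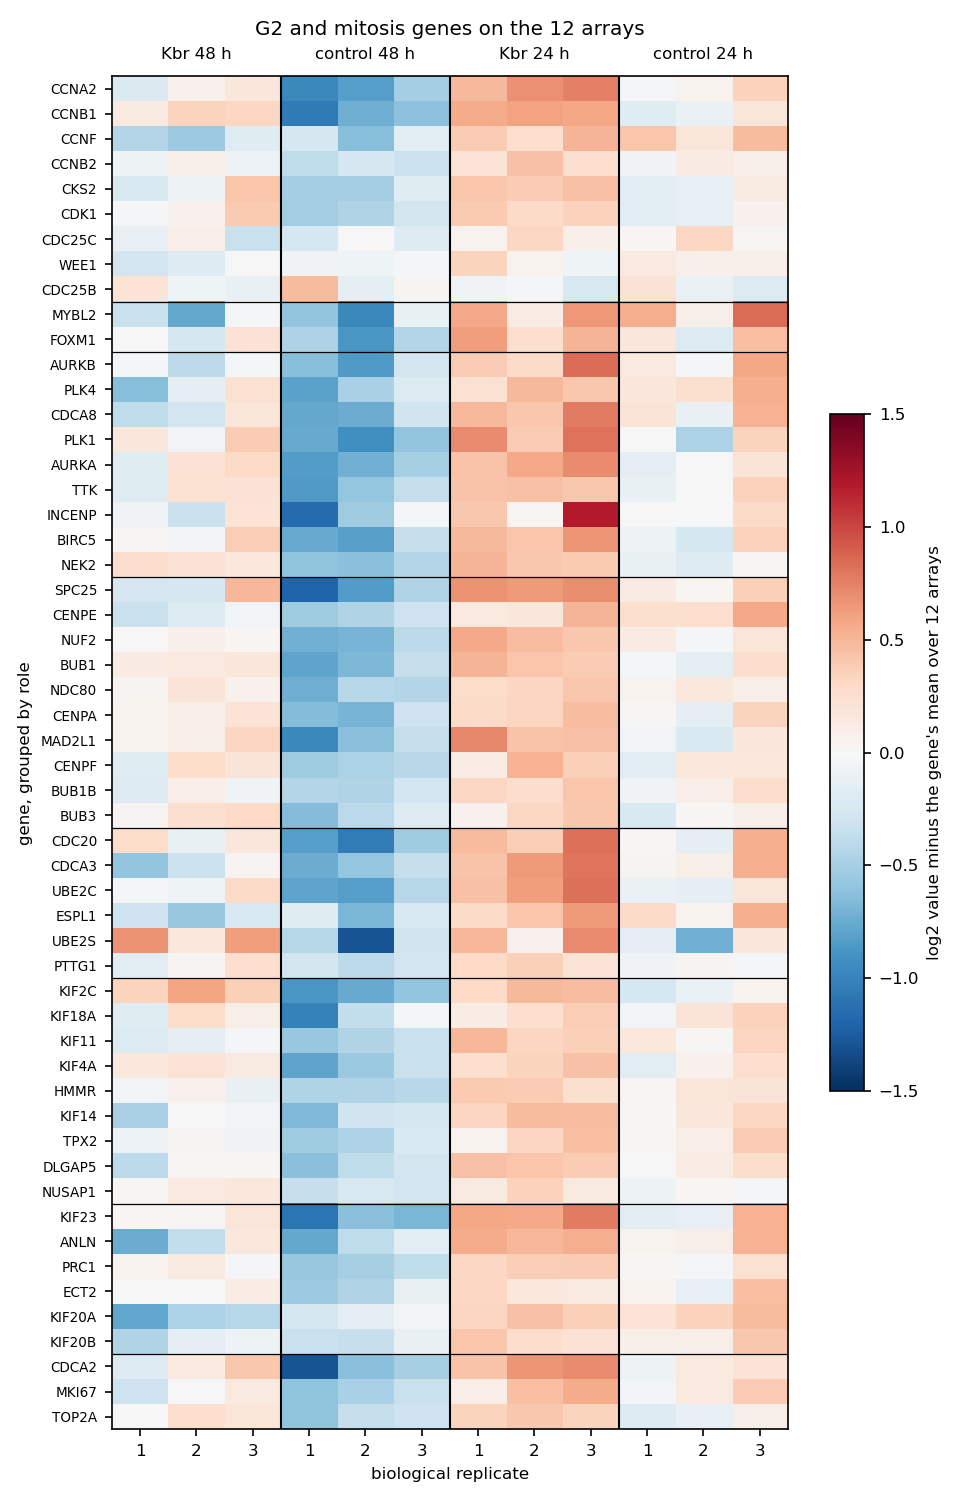
Log2 value of each of the 54 members minus that member's mean over the 12 arrays (colour), with members in rows grouped by role and arrays in columns by group and biological replicate. Control cells at 48 h are the lowest block, with array medians of 10.03 to 10.41, and Kbr cells at 24 h the highest, with 11.18 to 11.25.

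At 48 h, 35 of the 54 members were higher in Kbr cells than in control cells and 1, KIF20A, was lower (limma, Benjamini-Hochberg adjusted p below 0.05 over all genes tested). Of all genes tested, 22.0% were called higher and 20.8% lower in this comparison. The members' median log2 change was 0.52, against -0.004 over all genes, with a range of -0.41 to 1.17. KIF2C, UBE2S and CCNB1 changed at least 2-fold. For 35 members the 3 Kbr arrays lay above all 3 control arrays, which held for 26.0% of all genes, and 47 members were higher in 3 of 3 pairs of arrays with a shared replicate number, which held for 36.5% of all genes. With the replicate number as a block 43 members were higher, against 28.7% of all genes, and 1 was lower. Of the 36 calls, 26 held whichever single array was left out. The calls of CCNB2, CKS2, FOXM1, BUB1B, SPC25, PTTG1, TPX2, KIF11, ECT2 and KIF20A did not, with highest adjusted p between 0.0504 and 0.161. Control replicate 1 at 48 h ended the call of SPC25. Kbr replicate 3 or control replicate 2 at 48 h ended that of PTTG1, and single arrays of either treatment at 48 h ended the others. For CKS2, TPX2 and ECT2 single arrays at 24 h, which add to the shared spread, did so too.

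At 24 h 5 members passed the test. NEK2, CCNB1, KIF2C, UBE2C and TOP2A were higher in Kbr cells and 0 were lower, while 2.48% of all genes were called higher and 3.25% lower. All 5 were also higher at 48 h. The median log2 change was 0.30, against -0.02 over all genes, and 51 of the 54 changes were above 0, against 5056 of 10665 over all genes. An unadjusted p below 0.05 was reached by 24 members (44.4%), against 23.7% of all genes. For 27 members the 3 Kbr arrays lay above all 3 control arrays, against 15.9% of all genes, and 43 were higher in 3 of 3 numbered pairs, against 31.2% of all genes. With the replicate number as a block 29 members were higher, against 10.4% of all genes. Without the block, the count of calls rested on single arrays: it was 11 without control replicate 3 at 24 h, 0 without control replicate 1, and 1 without control replicate 2 or any of the Kbr arrays at 24 h. Leaving out Kbr replicate 2 at 48 h gave 3 calls, and leaving out Kbr replicate 3 at 48 h gave 8.

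In control cells 25 of the 54 members fell with time, being lower at 48 h than at 24 h, and 0 rose, against 1.88% of all genes lower and 1.42% higher. The median log2 change was -0.63, against -0.02 over all genes, with a range of -1.05 to 0.16. CDC25B alone had a change above 0, against 4920 of 10665 over all genes. Groups did not overlap for 49 members, against 14.5% of all genes, and 53 were lower in 3 of 3 numbered pairs, against 32.9% of all genes. An unadjusted p below 0.05 was reached by 48 members (88.9%), against 21.4% of all genes. With the replicate number as a block 51 members were lower, against 13.3% of all genes, the 3 others being CDC25B, WEE1 and PTTG1. Without the block, none of the 25 calls held when control replicate 3 at 24 h or control replicate 1 at 48 h was left out, and 1, NDC80, held without control replicate 2 at 48 h. The count was 9 without Kbr replicate 2 of either time, 10 without Kbr replicate 1 or control replicate 1 at 24 h, 15 without Kbr replicate 3 at 24 h, and 34 without control replicate 3 at 48 h. In these 12 fits the members' median change stayed below 0.

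In Kbr cells 14 of the 54 members were lower at 48 h than at 24 h and 0 were higher, against 5.04% of all genes lower and 5.60% higher. The median log2 change was -0.39, against -0.01 over all genes. Groups did not overlap for 40 members, against 15.5% of all genes, and 46 were lower in 3 of 3 numbered pairs, against 31.1% of all genes. An unadjusted p below 0.05 was reached by 39 members (72.2%), against 29.0% of all genes, and with the replicate number as a block 36 were lower, against 16.4% of all genes. Without the block, KIF20A alone kept its call whichever array was left out. The count was 1 without Kbr replicate 3 at 24 h or Kbr replicate 2 at 48 h, 3 without Kbr replicate 1 at 48 h, 5 without Kbr replicate 1 or 2 at 24 h, and 21 without Kbr replicate 3 at 48 h.

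Set side by side, 8 members passed the test for a fall with time in both Kbr and control cells: CCNA2, CCNF, NUF2, UBE2C, DLGAP5, HMMR, KIF11 and KIF20A. CDCA8, ESPL1, CDCA3, KIF14, ANLN and KIF20B passed in Kbr cells and, without the replicate block, not in controls, and 17 passed in controls and not in Kbr cells. With the replicate number as a block 36 passed in both, those 6 among them. The change with time was less negative in Kbr cells than in control cells for 44 members and more negative for 10, whether or not it passed. That difference, which is the Kbr effect at 48 h minus that at 24 h, had a median of 0.23 on the log2 scale, against 0.01 over all genes. Over all genes it was above 0 for 5535 of 10665. For single members it did not pass the test: limma called 0 higher and 0 lower, against 0.0656% and 0.0750% of all genes, and 5 members (9.3%) had an unadjusted p below 0.05, against 16.1% of all genes. With the replicate number as a block KIF2C passed upward and KIF20A downward, against 3.41% and 3.95% of all genes. Each comparison between treatments shares a group of arrays with each comparison between times, so these changes are not separate measurements. In the 5 comparisons CDC25B, CDC25C, WEE1, MYBL2, AURKB, PLK4, INCENP, KIF18A and MKI67 passed none without the block, and with it CDC25B and WEE1 alone of them passed none. For MKI67 and AURKB this rests on the probe set used. Other MKI67 probe sets passed for Kbr at 48 h and for both time courses. Another AURKB probe set, with a mean level of 5.03, passed for the Kbr time course (adjusted p = 0.0391 over all probe sets tested).

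**Figure D3:**
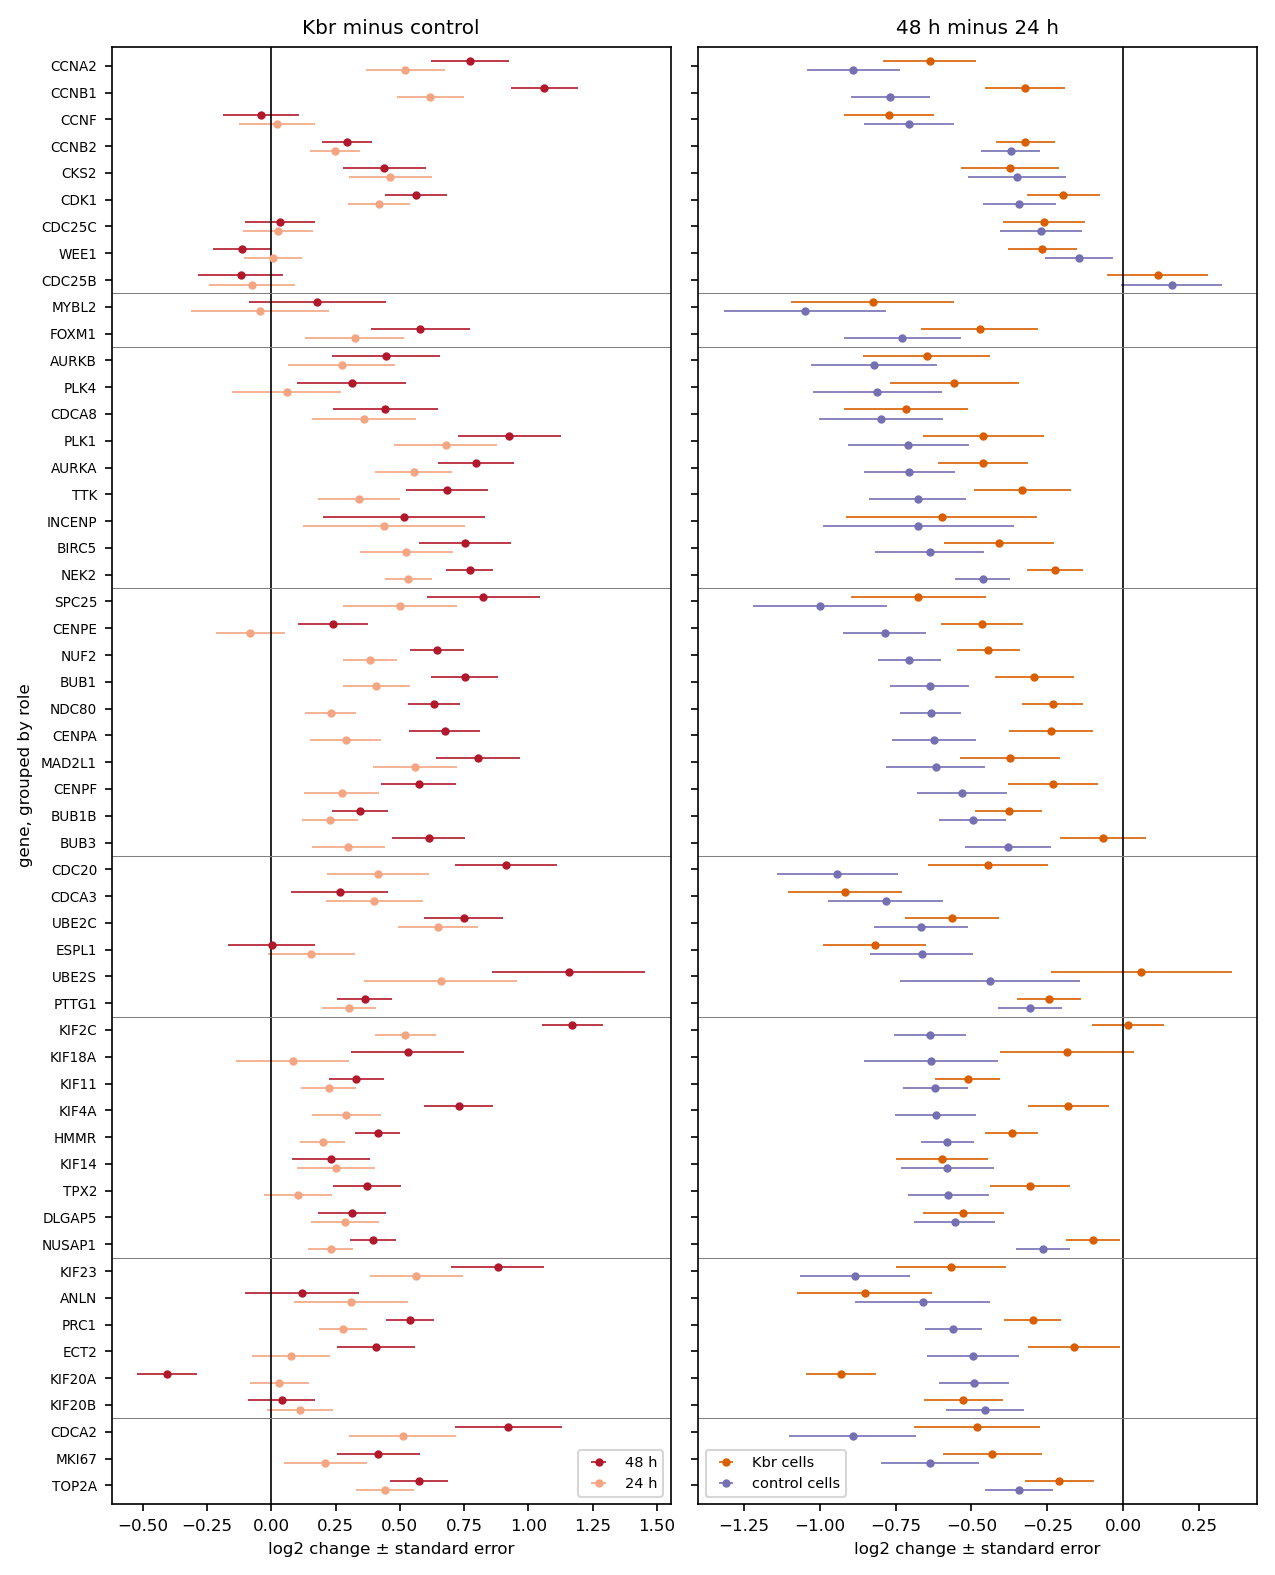
Log2 change of each member with its standard error (horizontal axis), for Kbr minus control at 48 h and 24 h on the left and for 48 h minus 24 h in Kbr and control cells on the right, with members grouped by role. On the left most points lie right of 0, with medians of 0.52 at 48 h and 0.30 at 24 h, and KIF20A at 48 h lies at -0.41. On the right most Kbr points lie nearer 0 than the control points, with medians of -0.39 and -0.63.

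Among the 9 cyclins, CDK1 and its regulators, 5 were higher with Kbr at 48 h and 1 at 24 h (5 with the replicate block). For this role and those below, 22.0% of all genes were called higher at 48 h and 2.48% at 24 h (28.7% and 10.4% with the block). Called lower with time were 5.04% of all genes in Kbr cells and 1.88% in control cells (16.4% and 13.3% with the block). CCNB1, the B-type cyclin of mitotic entry, had log2 levels of 12.81, 13.01 and 12.98 in Kbr cells at 48 h, against 11.62, 11.94 and 12.06 in control cells. At 24 h it had 13.24, 13.28 and 13.26 in Kbr cells, against 12.49, 12.57 and 12.85 in control cells. The groups did not overlap at either time, and the Kbr arrays were the higher ones. CCNB1 was 2.09-fold higher at 48 h (log2 change 1.06 ± 0.13 SE, adjusted p = 0.0002) and 1.54-fold higher at 24 h (0.62, adjusted p = 0.0253). Its change with time was -0.32 in Kbr cells (adjusted p = 0.13, and 0.0283 with the replicate block) and -0.77 in control cells (adjusted p = 0.0197).

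CDK1, the kinase itself, had log2 levels of 12.53, 12.62 and 12.94 in Kbr cells at 48 h, against 12.03, 12.10 and 12.28 in control cells. Its 24 h levels were 12.94, 12.84 and 12.90 in Kbr cells, against 12.39, 12.43 and 12.62 in control cells. Kbr arrays were above all control arrays at each time, while Kbr arrays of the 2 times overlapped. The change with Kbr was 0.56 at 48 h (adjusted p = 0.0038) and 0.42 at 24 h, which passed only with the replicate block (adjusted p = 0.0649, and 0.00954 with the block). CCNA2, the S and G2 cyclin, rose by 0.77 at 48 h, CCNB2 by 0.29 and CKS2, a small subunit bound to CDK1, by 0.44.

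The other members of this role did not rise. CCNF, a cyclin and F-box subunit of a ubiquitin ligase, had log2 levels of 8.12, 8.02 and 8.38 in Kbr cells at 48 h, against 8.31, 7.92 and 8.40 in control cells. The values at 24 h were 8.94, 8.81 and 9.07 in Kbr cells, against 8.97, 8.75 and 9.04 in control cells. Treatment groups overlapped at both times, with a 48 h difference of -0.04 (95% interval -0.37 to 0.29). Both 48 h groups lay below their 24 h groups, and CCNF fell by 0.77 in Kbr cells (adjusted p = 0.0121) and by 0.71 in control cells (adjusted p = 0.036). The 48 h differences of CDC25B, CDC25C and WEE1, which set the phosphorylation of CDK1, were -0.12, 0.03 and -0.11, and none passed the test.

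Of the transcription factors, FOXM1, an activator of G2 genes, had log2 levels of 9.33, 9.06 and 9.54 in Kbr cells at 48 h, against 8.86, 8.45 and 8.89 in control cells. At the earlier time it had 9.95, 9.57 and 9.83 in Kbr cells, against 9.50, 9.11 and 9.77 in control cells. The groups were apart at 48 h and overlapped at 24 h. FOXM1 was 1.49-fold higher at 48 h (0.58, adjusted p = 0.0319), a call that ended when Kbr replicate 1, Kbr replicate 3 or control replicate 2 of that time was left out (highest adjusted p 0.116). At 24 h its change was 0.32 (adjusted p = 0.335, and 0.0279 with the replicate block). MYBL2, which joins the MuvB complex in S phase, had 9.28, 8.85 and 9.59 in Kbr cells at 48 h, against 9.03, 8.65 and 9.50 in control cells. The 24 h arrays gave 10.19, 9.74 and 10.27 in Kbr cells, against 10.17, 9.70 and 10.46 in control cells. Treatments overlapped at both times, and both 48 h groups were below their 24 h groups. Its changes with time were -0.83 in Kbr cells and -1.05 in control cells, the lowest control value among the members. They passed only with the replicate block (adjusted p = 0.0715 and 0.0596, and 0.000505 and 0.000396 with the block).

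Of the 9 mitotic kinases and members of the chromosomal passenger complex, 5 were higher with Kbr at 48 h (7 with the replicate block). All 9 changes were above 0 at both times, while over all 10665 genes 5296 were at 48 h and 5056 at 24 h. NEK2, a kinase of centrosome separation, had log2 levels of 10.91, 10.86 and 10.79 in Kbr cells at 48 h, against 10.04, 10.02 and 10.20 in control cells. At 24 h it had 11.16, 11.05 and 11.03 in Kbr cells, against 10.53, 10.45 and 10.66 in control cells. No treatments overlapped within a time, and no times within a treatment. Its changes with Kbr were 0.77 at 48 h (adjusted p = 0.000166) and 0.53 at 24 h (adjusted p = 0.0122), and the call at 24 h ended only without control replicate 1 at 24 h (adjusted p = 0.0628).

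PLK1, the polo-like kinase of mitotic entry and spindle assembly, had 9.75, 9.54 and 9.96 in Kbr cells at 48 h, against 8.83, 8.66 and 8.99 in control cells. Its 24 h levels were 10.29, 9.96 and 10.39 in Kbr cells, against 9.58, 9.11 and 9.91 in control cells. Kbr arrays were above all control arrays at both times. PLK1 was 1.90-fold higher at 48 h (0.93, adjusted p = 0.00392), and its 24 h change of 0.68 passed only with the replicate block (adjusted p = 0.0689, and 0.00233 with the block). AURKA, the spindle pole Aurora kinase, rose by 0.79 at 48 h, BIRC5 (survivin, of the passenger complex) by 0.75 and TTK, a checkpoint kinase, by 0.68.

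AURKB, the Aurora kinase of the passenger complex, had 9.57, 9.20 and 9.58 in Kbr cells at 48 h, against 8.95, 8.75 and 9.32 in control cells. The values at 24 h were 9.98, 9.89 and 10.44 in Kbr cells, against 9.74, 9.56 and 10.18 in control cells. Treatments overlapped at both times, though each Kbr array was above the control array of its number. The change at 48 h was 0.45 (adjusted p = 0.107, and 0.00255 with the replicate block). CDCA8 (borealin, of the same complex) had 9.70, 9.81 and 10.27 in Kbr cells at 48 h, against 9.32, 9.35 and 9.79 in control cells, and the groups overlapped. At the earlier time it had 10.58, 10.49 and 10.87 in Kbr cells, against 10.28, 9.97 and 10.61 in control cells. It fell with time by 0.72 in Kbr cells (adjusted p = 0.0484), while its change in control cells was -0.80 (adjusted p = 0.0596, and 0.000871 with the block). At 48 h the change with Kbr was 0.44 (adjusted p = 0.102, and 0.00225 with the block). PLK4, the kinase of centriole duplication, and INCENP, the scaffold of the passenger complex, had 48 h changes of 0.31 and 0.52 that did not pass with or without the block.

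Of the 10 checkpoint and kinetochore members 9 were higher with Kbr at 48 h and 0 at 24 h (7 with the replicate block). With time 1 was lower in Kbr cells and 7 in control cells (5 and 10 with the block). NDC80 and NUF2 are partners in the complex that binds microtubule ends. NDC80 had log2 levels of 9.87, 10.02 and 9.90 in Kbr cells at 48 h, against 9.10, 9.40 and 9.39 in control cells. The 24 h arrays gave 10.10, 10.15 and 10.23 in Kbr cells, against 9.88, 9.99 and 9.92 in control cells. No treatments overlapped within a time, and no times within a treatment. NDC80 rose by 0.63 at 48 h (adjusted p = 0.00071), and its change at 24 h was 0.23 (adjusted p = 0.191, and 0.0524 with the replicate block). Its change with time was -0.23 in Kbr cells (adjusted p = 0.153, and 0.0436 with the block) and -0.63 in control cells (adjusted p = 0.0166).

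NUF2 had 10.01, 10.09 and 10.03 in Kbr cells at 48 h, against 9.29, 9.31 and 9.60 in control cells. At 24 h it had 10.57, 10.48 and 10.42 in Kbr cells, against 10.14, 9.99 and 10.19 in control cells. Again neither treatments within a time nor times within a treatment overlapped. It rose by 0.64 at 48 h (adjusted p = 0.000763), with a 24 h change of 0.38 (adjusted p = 0.0538, and 0.0203 with the replicate block), and it fell with time by 0.44 in Kbr cells (adjusted p = 0.0237) and by 0.70 in control cells (adjusted p = 0.0143). The third partner shown here, SPC25, rose by 0.83 at 48 h. Among the checkpoint proteins MAD2L1 rose by 0.81, BUB1 by 0.75, BUB3 by 0.61 and BUB1B by 0.35. The centromeric histone CENPA rose by 0.67 and the kinetochore protein CENPF by 0.57. CENPE, a kinetochore motor, was the member that did not pass, with 0.24 (adjusted p = 0.179, and 0.0123 with the block).

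Of the 6 genes of ubiquitin-driven mitotic exit and sister separation, 4 were higher with Kbr at 48 h. UBE2C, the ubiquitin-conjugating enzyme of the anaphase promoting complex, had log2 levels of 12.74, 12.71 and 13.06 in Kbr cells at 48 h, against 11.98, 11.94 and 12.35 in control cells. Its 24 h levels were 13.21, 13.40 and 13.60 in Kbr cells, against 12.67, 12.64 and 12.95 in control cells. Neither the treatments within a time nor the times within a treatment overlapped, and UBE2C was the only member of this role called at 24 h (0.65, adjusted p = 0.0376). It rose by 0.75 at 48 h (adjusted p = 0.00309) and fell with time by 0.57 in Kbr cells (adjusted p = 0.042) and by 0.67 in control cells (adjusted p = 0.0453). UBE2S, which extends the ubiquitin chains, rose by 1.16 at 48 h with a wide spread, at 13.50 ± 0.29 in Kbr cells and 12.34 ± 0.54 in control cells (SD, n = 3 each). PTTG1 (securin) rose by 0.36.

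CDC20, which activates the anaphase promoting complex, had 11.83, 11.44 and 11.73 in Kbr cells at 48 h, against 10.74, 10.51 and 11.02 in control cells. The values at 24 h were 12.03, 11.93 and 12.38 in Kbr cells, against 11.58, 11.43 and 12.09 in control cells. Treatments were apart at 48 h and overlapped at 24 h. CDC20 rose by 0.91 at 48 h (adjusted p = 0.0041), and its 24 h change was 0.42 (adjusted p = 0.232, and 0.0217 with the replicate block). CDCA3, which in frog egg extracts promotes the destruction of WEE1, had 10.09, 10.37 and 10.73 in Kbr cells at 48 h, against 9.94, 10.11 and 10.34 in control cells, and 11.12, 11.33 and 11.49 in Kbr cells at 24 h, against 10.73, 10.77 and 11.23 in control cells. Treatments overlapped at both times. The changes with Kbr were 0.27 at 48 h (adjusted p = 0.281, and 0.017 with the block) and 0.40 at 24 h (adjusted p = 0.228, and 0.00871 with the block). CDCA3 fell with time by 0.92 in Kbr cells (adjusted p = 0.0157), while its change in control cells was -0.78 (adjusted p = 0.0508, and 0.000798 with the block). ESPL1 (separase) had a 48 h difference of 0.00 and fell with time by 0.82 in Kbr cells, while its change in control cells was -0.66 (adjusted p = 0.06, and 0.00401 with the block).

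Among the 9 spindle assembly genes and motors, 6 were higher with Kbr at 48 h (9 with the replicate block). With time 4 were lower in Kbr cells and 6 in control cells (5 and 9 with the block). KIF2C, a kinesin that takes microtubules apart at centromeres, had log2 levels of 11.51, 11.77 and 11.52 in Kbr cells at 48 h, against 10.30, 10.42 and 10.58 in control cells. At the earlier time it had 11.47, 11.66 and 11.63 in Kbr cells, against 10.91, 11.07 and 11.22 in control cells. Kbr arrays of the 2 times overlapped and all lay above the control arrays. KIF2C had the largest rise among the members at 48 h, 2.25-fold (1.17 ± 0.12 SE, adjusted p = 8.49e-05), and rose 1.43-fold at 24 h (adjusted p = 0.0332). Its change with time was 0.01 in Kbr cells and -0.64 in control cells (adjusted p = 0.026). The difference between the Kbr effects at 48 h and 24 h was 0.65 (95% interval 0.28 to 1.02, adjusted p = 0.131, and 0.0221 with the replicate block).

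HMMR, a spindle and hyaluronan-binding protein, had 11.08, 11.18 and 11.00 in Kbr cells at 48 h, against 10.66, 10.66 and 10.70 in control cells. The 24 h arrays gave 11.51, 11.50 and 11.36 in Kbr cells, against 11.15, 11.30 and 11.32 in control cells. Treatments were apart at each time and times within each treatment. HMMR rose by 0.41 at 48 h (adjusted p = 0.00353). Its 24 h change of 0.20 did not pass (adjusted p = 0.196, and 0.0883 with the replicate block). HMMR fell with time by 0.37 in Kbr cells (adjusted p = 0.0264) and by 0.58 in control cells (adjusted p = 0.015). KIF11, the kinesin that pushes spindle poles apart, had 10.46, 10.55 and 10.66 in Kbr cells at 48 h, against 10.11, 10.23 and 10.35 in control cells. At 24 h it had 11.18, 11.00 and 11.04 in Kbr cells, against 10.84, 10.70 and 11.00 in control cells. Both 48 h groups lay below their 24 h groups, and the treatments were apart at 48 h and overlapped at 24 h. Its rise of 0.33 at 48 h (adjusted p = 0.029) ended when Kbr replicate 2 or 3, or else control replicate 1 or 2, of that time was left out (highest adjusted p 0.1). It fell with time by 0.51 in Kbr cells (adjusted p = 0.0164) and by 0.62 in control cells (adjusted p = 0.0197). The chromosome motor KIF4A rose by 0.73 at 48 h, and the spindle proteins NUSAP1 and TPX2 by 0.39 and 0.37. DLGAP5, KIF14 and KIF18A had 48 h changes of 0.31, 0.23 and 0.53 that passed only with the replicate block (adjusted p = 0.0787, 0.239 and 0.0744, and 0.0215, 0.0378 and 0.0103 with the block).

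The 6 cytokinesis genes were divided: PRC1, ECT2 and KIF23 were higher with Kbr at 48 h and KIF20A was lower. PRC1, which bundles midzone microtubules, had log2 levels of 11.36, 11.44 and 11.29 in Kbr cells at 48 h, against 10.74, 10.81 and 10.92 in control cells. Its 24 h levels were 11.62, 11.67 and 11.69 in Kbr cells, against 11.33, 11.29 and 11.53 in control cells. Kbr arrays were above all controls at both times, and PRC1 rose by 0.54 at 48 h (adjusted p = 0.00112), with 0.28 at 24 h (adjusted p = 0.101, and 0.0363 with the replicate block). KIF23, the motor of the centralspindlin complex, had 9.68, 9.67 and 9.84 in Kbr cells at 48 h, against 8.56, 9.03 and 8.96 in control cells. The values at 24 h were 10.24, 10.22 and 10.43 in Kbr cells, against 9.50, 9.54 and 10.17 in control cells. Kbr arrays were above all control arrays at both times. It was 1.84-fold higher at 48 h (0.88, adjusted p = 0.00302), and its 24 h change was 0.56 (adjusted p = 0.0892, and 0.0169 with the block). ECT2, which activates the small GTPase of the cleavage furrow, rose by 0.41.

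KIF20A, the midzone motor, went the other way. It had 10.07, 10.38 and 10.43 in Kbr cells at 48 h, against 10.59, 10.70 and 10.81 in control cells. At the earlier time it had 11.18, 11.29 and 11.21 in Kbr cells, against 11.06, 11.20 and 11.33 in control cells. At 24 h the groups overlapped, and at 48 h every Kbr array was below every control array. KIF20A was 1.33-fold lower at 48 h (-0.41 ± 0.12 SE, 95% interval -0.66 to -0.15, adjusted p = 0.0161), a call that ended when Kbr replicate 1 or control replicate 3 of that time was left out (highest adjusted p 0.0567). It fell with time by 0.93 in Kbr cells (adjusted p = 0.00272) and by 0.49 in control cells (adjusted p = 0.0464). The difference between these was -0.44 (95% interval -0.80 to -0.08, adjusted p = 0.231, and 0.045 with the replicate block). ANLN (anillin) and KIF20B, a kinesin of the midbody, had 48 h differences of 0.12 and 0.04, and both fell with time in Kbr cells, by 0.85 and 0.53. In control cells their changes of -0.66 and -0.46 passed only with the block (adjusted p = 0.125 and 0.0799, and 0.0132 and 0.0209 with the block).

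Among the last 3 members, TOP2A, the topoisomerase that untangles sister chromatids, had log2 levels of 12.35, 12.59 and 12.52 in Kbr cells at 48 h, against 11.73, 11.98 and 12.02 in control cells. The 24 h arrays gave 12.67, 12.74 and 12.68 in Kbr cells, against 12.13, 12.21 and 12.43 in control cells. No treatments overlapped within a time, and no times within a treatment. TOP2A rose by 0.57 at 48 h (adjusted p = 0.00227) and by 0.44 at 24 h (adjusted p = 0.0464). CDCA2, which recruits a phosphatase to chromatin, had 9.44, 9.78 and 10.04 in Kbr cells at 48 h, against 8.35, 9.01 and 9.14 in control cells. At 24 h it had 10.06, 10.30 and 10.34 in Kbr cells, against 9.55, 9.78 and 9.84 in control cells. Kbr arrays were above all control arrays at both times. It was 1.89-fold higher at 48 h (0.92, adjusted p = 0.00505), and its 24 h change of 0.51 passed only with the replicate block (adjusted p = 0.167, and 0.0116 with the block).

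MKI67, the proliferation marker Ki-67, had 11.24, 11.55 and 11.70 in Kbr cells at 48 h, against 10.95, 11.07 and 11.22 in control cells. Its 24 h levels were 11.66, 12.01 and 12.11 in Kbr cells, against 11.51, 11.70 and 11.94 in control cells. At 48 h the lowest Kbr array was just above the highest control, and at 24 h the groups overlapped. The change was 0.42 at 48 h (adjusted p = 0.0592, and 0.000835 with the replicate block) and 0.21 at 24 h (adjusted p = 0.47). Its changes with time were -0.43 in Kbr cells and -0.64 in control cells (adjusted p = 0.109 and 0.0595, and 0.0028 and 0.000839 with the block). Other MKI67 probe sets changed with Kbr at 48 h by 0.38, 0.05 and 0.06, and the first passed (adjusted p = 0.0464 over all probe sets tested). With time they changed by -0.54, -0.97 and -0.82 in Kbr cells (adjusted p = 0.0403, 0.00725 and 0.034). In control cells they changed by -0.68, -0.84 and -0.65 (adjusted p = 0.0393, 0.0323 and 0.113).

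**Figure D4:**
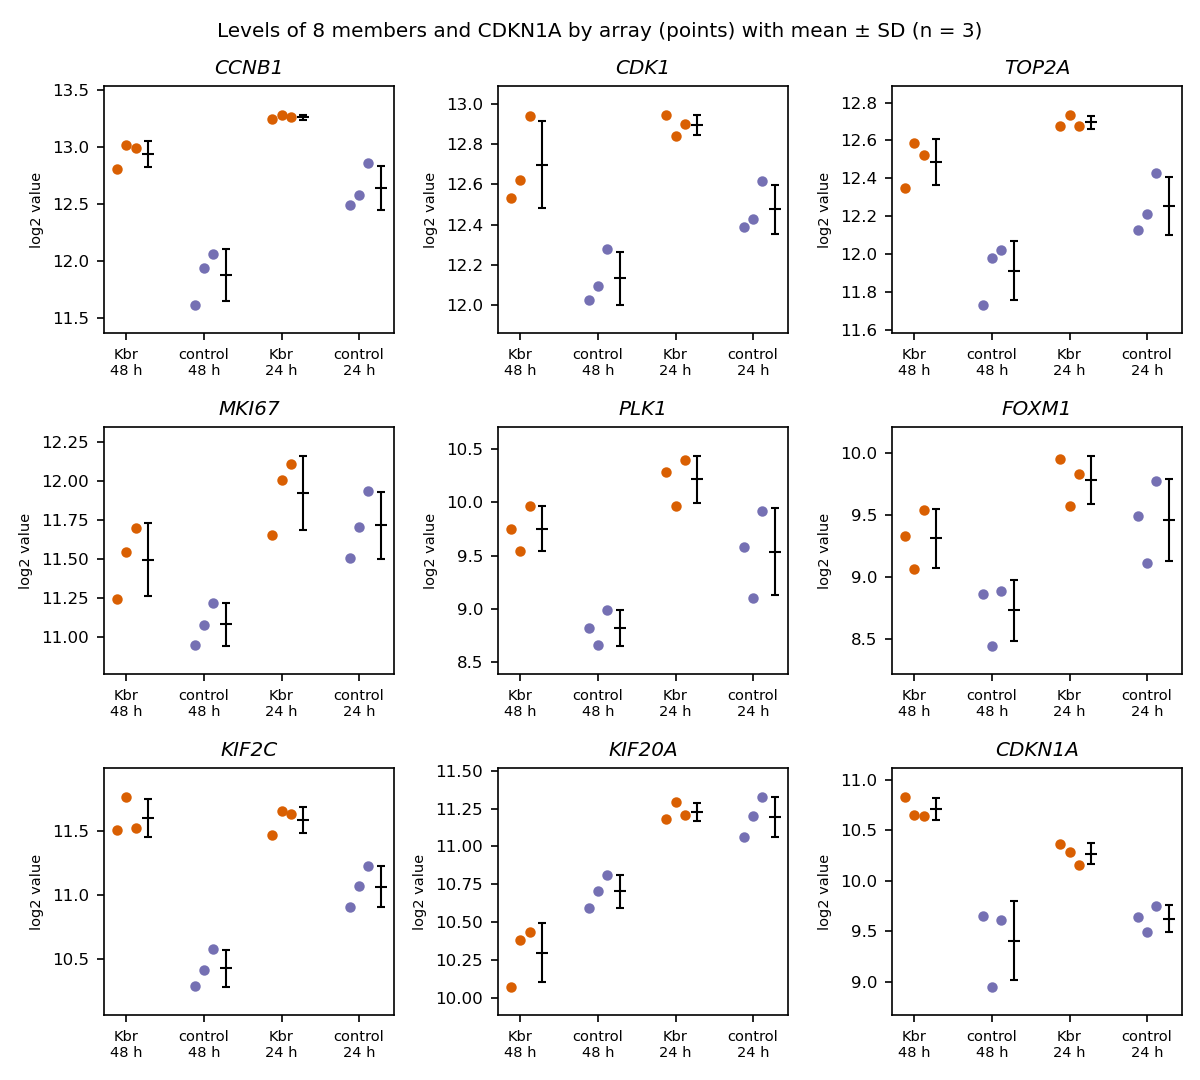
Log2 values (vertical axis) of CCNB1, CDK1, TOP2A, MKI67, PLK1, FOXM1, KIF2C, KIF20A and the inhibitor CDKN1A in Kbr cells (orange) and control cells (purple) at 48 h and 24 h (horizontal axis); points are arrays and bars the mean ± SD (n = 3). KIF2C stays at about its 24 h level in Kbr cells, with a change of 0.01, KIF20A is lower in Kbr cells than in control cells at 48 h, and CDKN1A is higher.

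Members with more than 1 probe set allowed a second look. Another 41 probe sets from 27 of the members passed the filter. Their change had the same sign as that of the probe set used in 36 of 41 cases for Kbr against control at 48 h, in 39 of 41 at 24 h, in 41 of 41 for the control time course and in 39 of 41 for the Kbr time course. For the difference between the Kbr effects at 48 h and 24 h it was 28 of 41, with 13 of opposite sign. At 48 h 22 of the 41 were called higher and 0 lower, and at 24 h 6 were called higher and 0 lower. Called lower with time were 6 in control cells and 7 in Kbr cells, and 0 were called higher. The share over all probe sets was not counted. Those higher at 24 h included probe sets of MAD2L1, CENPF and BUB3 (adjusted p = 0.0198, 0.0238 and 0.0473 over all probe sets tested). The probe sets used for these genes were not called at 24 h. Among the members called at 24 h, the other probe set of CCNB1 passed (adjusted p = 0.00864). Those of NEK2 (0.151), KIF2C (0.116) and TOP2A (0.292 and 0.493) did not. Over all probe sets tested, the TOP2A probe set used did not pass at 24 h either (adjusted p = 0.061). The 5 of opposite sign at 48 h belonged to AURKB, CCNF, CDCA3, CENPF and WEE1, named after their values were seen, and their changes of -0.24, 0.58, -0.04, -0.15 and 0.03 did not pass the test.

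Genes around the members gave the setting. Of 27 other kinetochore and centromere genes tested, 15 were higher and 2 lower with Kbr at 48 h, among them SKA1 (1.66) and SKA3 (1.04) of the microtubule-binding SKA complex and HJURP (0.99), the chaperone of CENPA. Also higher were 10 of 19 other spindle and cytokinesis genes with 0 lower, including ARHGAP11A (1.17) and CEP55 (1.00), and 7 of 13 other G2/M regulators with 0 lower, including the mitotic kinase MASTL (1.19). Condensin and cohesin genes gave 6 higher and 1 lower of 14, with CDCA5 (sororin, 1.16) at the top. Subunits and partners of the anaphase promoting complex gave 3 higher and 2 lower of 13, with ANAPC10 at 0.88 and ANAPC13 at -0.70. DNA replication genes gave 9 higher and 4 lower of 33, with CDC6 at 2.31 and POLA1 at -0.75. Over all genes 22.0% were higher and 20.8% lower, and the shares higher in the last 2 lists, 23.1% and 27.3%, were near that background.

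Of the 17 RB, DREAM and E2F genes, whose products include regulators of cell cycle promoters, 7 were higher and 1 lower with Kbr at 48 h. The pocket protein gene RBL2 was the lower one (-0.74), and LIN52, a subunit of the MuvB core, rose by 0.92. Of the 27 other kinetochore genes 5 fell with time in Kbr cells and 10 in control cells (11 and 17 with the replicate block). The 19 other spindle and cytokinesis genes ran the other way, with 6 in Kbr cells and 3 in control cells, but 10 and 18 with the block. For the 13 other G2/M regulators the counts were 4 in Kbr cells and 6 in control cells (7 and 13 with the block), and for the 33 DNA replication genes 5 and 10 (12 and 20 with the block). The anaphase promoting complex list gave 1 in each, condensin and cohesin genes 1 in Kbr cells and 3 in control cells, and RB, DREAM and E2F genes 1 and 2. Of all genes 5.04% were lower with time in Kbr cells and 1.88% in control cells (16.4% and 13.3% with the block). In Kbr cells the shares of the last 3 lists, 7.69%, 7.14% and 5.88%, were near that background. The differences between the counts in Kbr and control cells were not tested. At 24 h HJURP, E2F6 and ANAPC10 were higher with Kbr and ANAPC13 lower, DNA replication genes gave 2 higher and 2 lower, and the other lists gave none. With the block 6 other kinetochore genes, 7 other spindle and cytokinesis genes and 4 other G2/M regulators were higher at 24 h. Of these lists only the spindle and cytokinesis genes had a lower one, 1. DNA replication genes gave 3 higher and 7 lower, RB, DREAM and E2F genes 2 and 2, and condensin and cohesin genes 2 and 1. The anaphase promoting complex list and the CDK inhibitors gave 1 and 1 each. Of all 10665 genes 10.4% were higher with the block, and 1490 were lower.

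**Figure D5:**
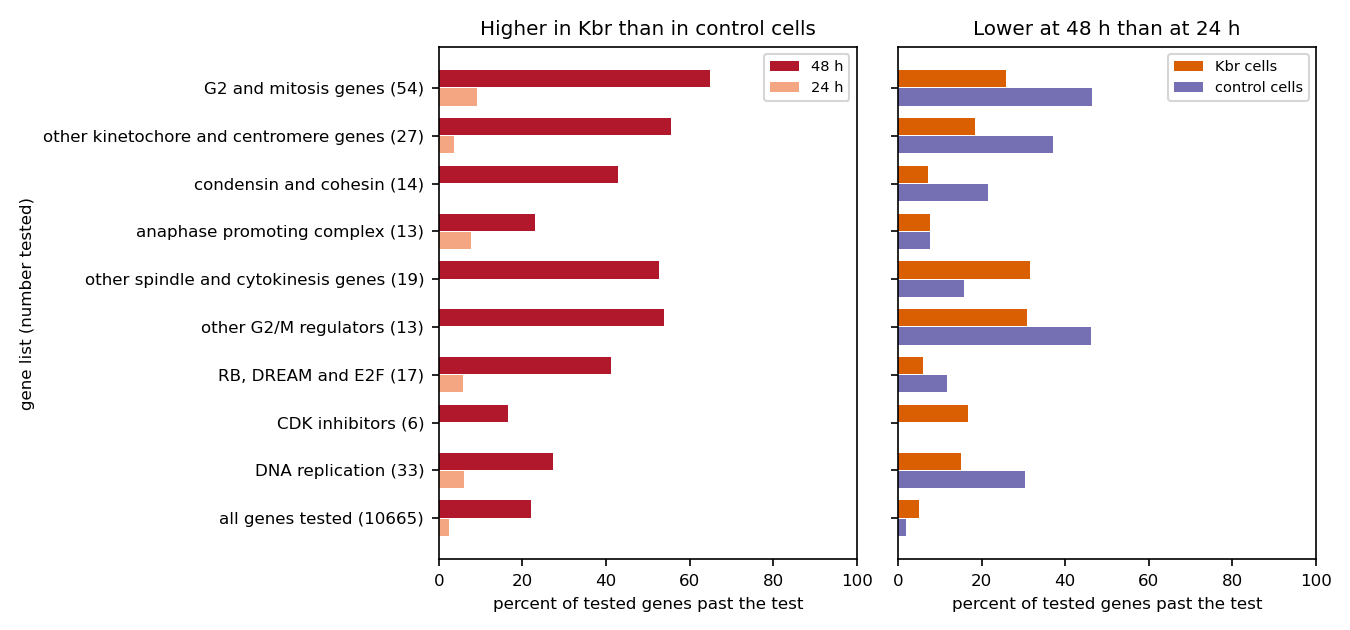
Percent of the tested genes of each list past the test (horizontal axis), for genes higher in Kbr than in control cells at 48 h and 24 h on the left and for genes lower at 48 h than at 24 h in Kbr and control cells on the right; numbers beside the list names are genes tested. The 54 G2 and mitosis genes reach 64.8% on the left at 48 h, where all genes tested reach 22.0%, and 46.3% on the right in control cells, where all genes reach 1.88%.

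CDKN1A (p21), an inhibitor of cyclin-dependent kinases and no member, was the 1 of 6 tested CDK inhibitors called higher with Kbr at 48 h. It had log2 levels of 10.83, 10.65 and 10.64 in Kbr cells at 48 h, against 9.66, 8.95 and 9.62 in control cells. The values at 24 h were 10.36, 10.29 and 10.16 in Kbr cells, against 9.64, 9.49 and 9.75 in control cells. Kbr arrays were above all controls at both times. It was 2.46-fold higher at 48 h (1.30, adjusted p = 0.000258), and its 24 h change was 0.64 (adjusted p = 0.0509, and 0.0134 with the replicate block). CDKN1A was higher in the same Kbr groups at 48 h in which 35 of the 54 members were higher.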

How the data were processed

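Total RNA of 12 HK-2 cultures was measured on Affymetrix arrays. The log2 expression values of 54675 probe sets were used as the authors deposited them. Per the submitters' processing notes they come from GCRMA, which removes background by probe sequence, normalizes by quantiles and summarizes probes, in a version that is not given in the sources used here. Values near its floor depend on that background model.

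Groups were taken from the labels, with 3 biological replicates each. Probe sets with several symbols (1801) or no symbol were left out, and the probe set with the highest mean stood for each of 19775 symbols. Genes above a log2 value of 4 on at least 3 of 12 arrays were kept (10665). The 4 group means were fitted in R 4.3.3 with limma 3.58.1 (lmFit, eBayes) on 12 arrays, and p-values are two-sided and Benjamini-Hochberg adjusted over all genes tested (threshold 0.05). Standard errors and 95% intervals are limma's. An exact test of 3 against 3 arrays cannot go below p = 0.1. The fit was also run on simulated data with independent arrays and shifts in the Kbr group at 48 h alone. That setting has no pairing of arrays, so it does not bear on the pairing described next.

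Arrays that share a replicate number varied together. Deviations from group means had correlations of 0.279 to 0.701 in the 18 pairs that share a number across groups. In the 36 pairs of unlike number they were -0.454 to -0.0613. Deviations cancel out within a group, so these ranges are tied to each other. The labels number the replicates and do not call them paired. The fit with the number as a block was therefore printed beside a member's stated change where it ends or adds a call.

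The members, their roles, the related lists, the markers, the tests and the named genes were chosen with earlier results of these data known. Genes given on every array were MKI67, TOP2A, CCNB1, CDK1, PLK1, AURKB, FOXM1 and CDKN1A, plus the member with the smallest p of each role in each of the 5 comparisons. Up to 3 genes past the test were named per related list and comparison. Promoter windows were RefSeq's, printed for up to 5 of those members with the most motif matches. Alternatives were the block, no filter, a floor of 6, repeated quantile normalization, subtraction of array medians, the mean or the most variable of a gene's probe sets, an intensity trend with robust variance, and leaving out each array.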

Additional observations from a re-analysis of the deposited data

How the results depend on the processing

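Members called for Kbr against control at 24 h numbered 5 as reported, 29 with the replicate block, 3 without the filter, 8 with the mean of probe sets, 3 with the most variable probe set, 9 with an intensity trend and robust variance, and 0 to 11 when 1 array was left out. Those called for the control time course numbered 25 as reported, 51 with the replicate block, 10 without the filter, 11 with the most variable probe set and 0 to 34 when 1 array was left out. Those called for the Kbr time course numbered 14 as reported, 36 with the block, 7 without the filter and 1 to 21 when 1 array was left out. For Kbr against control at 48 h the count stayed between 29 and 44 in every alternative run, 36 being reported. The difference between the times gave 2 members with the block and 0 in the others. The members' median change kept its sign in all 5 comparisons under every alternative run: 0.41 to 0.60 for Kbr at 48 h, 0.24 to 0.41 for Kbr at 24 h, -0.73 to -0.52 for the control time course, -0.47 to -0.32 for the Kbr time course and 0.10 to 0.33 for the difference. Single members were not all so: at 48 h 5 of 41 other probe sets had a sign opposite to that of the probe set used, among them those of CENPF and AURKB. Over all genes the counts moved too: 612 for Kbr at 24 h became 2602 with the block and 81 to 767 when 1 array was left out. The control time course had 351, 2404 with the block, 185 without the filter, 186 with the most variable probe set and 21 to 558 when 1 array was left out. The Kbr time course had 1135, 3273 with the block, 726 without the filter and 288 to 2206 when 1 array was left out. The difference had 15, 785 with the block, 32 without the filter, 8 after subtraction of array medians, 9 with a floor of 6, 3 with the mean of probe sets and 0 to 479 when 1 array was left out. With 3 arrays in a group, the calls at 24 h and of the time courses without the block rest on which arrays are in the fit. Arrays were not left out of the fit with the block, so its calls were not examined in this way. Values near the background floor, such as those of INCENP, rest on the background model. The cause of these shifts was not tested.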
